A study of Mus musculus with 10 samples.

Results

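The 39 genes described here mark the endothelium, the cell layer that lines the capillaries of the glomerulus. Each was read from 1 probe set, the one with the highest mean over 10 arrays among probe sets annotated to that gene alone. All 39 were found among 18193 genes measured in this way. The arrays came from glomeruli, the filtering units of the kidney, of 10 male mice at 27 days of age, isolated by perfusion of the heart with magnetic beads. Of these mice 5 were heterozygous for the R394W knock-in allele of Wt1 (Wt1 +/R394W, called mutants below) and 5 were wild-type littermates (Wt1 +/+). Both groups came from 4 backcrosses to FVB/N. The mutants had little albuminuria, and light microscopy had found no mesangial lesions in them. As a knock-in the allele is not limited to one cell type, and an isolate holds podocytes, mesangial cells and carried-over tubule beside endothelium. Nothing in the labels names a litter, so p-values measure the spread between single mice.

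Glomerular endothelial cells are flat and perforated by fenestrae, and plasma passes through these openings before it meets the basement membrane and the podocytes. Their identity rests on transcription factors of the ETS, SOX, GATA and KLF families, which control adhesion molecules such as VE-cadherin and receptors for growth factors released by podocytes. WT1 is a podocyte protein in the mature glomerulus, so endothelial transcripts report on the neighbouring cells of the filter rather than on the cells that hold most of the WT1 protein. In whole glomeruli, fewer endothelial cells and less RNA per endothelial cell cannot be told apart.

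Levels are log2 expression values, and a difference is the mean of mutants less that of wild types. Array medians lay between 6.32 and 6.40, and arrays correlated at 0.985 to 0.997 over all probe sets, a narrow range that the normalization itself favours. Podocyte genes checked the tissue: Nphs1 averaged 12.97 ± 0.10 (SD, n = 5) in wild types and Podxl 14.41 ± 0.04 (SD, n = 5). Of 4 lymphatic markers, Prox1 (4.10), Mmrn1 (4.21) and Lyve1 (4.88) averaged below the array medians in wild types, while Pdpn, which podocytes also express, averaged 11.83. The defining endothelial genes Pecam1, Cdh5 and Emcn read 9.69 or higher in every mouse, on probe sets chosen for their high mean. The other Cdh5 probe set averaged 7.16, and Vwf, an endothelial gene outside the 39, averaged 4.67 in wild types, below the array medians.

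None of the 39 endothelial genes passed the test between genotypes. The limma fit over all probe sets called 0 of 39 at an adjusted p under 0.05, where it called 1.26% of all genes. At an unadjusted p under 0.05 it listed 7 of 39, of which 5 were lower and 2 higher in mutants, against 11.0% of all genes. With an intensity trend and robust variances, limma again called 0 of 39 and listed 8 at an unadjusted p under 0.05. The differences were small, from -0.37 (Sox18) to 0.27 (Rhoj), and their median was -0.07 against 0.00 over all genes. The mutant mean was the lower one in 26 of 39, against 48.3% of all genes, but these genes share the same cells and arrays and are not independent of one another.

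The intervals bound each difference in whole-glomerulus level, with no better precision than over all genes. The 95% interval stayed within a 2-fold change in either direction for 39 of 39 genes, as it did for 96.9% of all genes. It stayed within 0.5 log2 units (1.41-fold) for 33 of 39, and for 15869 of all 18193 genes. The lowest bound over all members was -0.74 (Klf4) and the highest 0.46 (Rhoj). A gene whose interval includes 0 may still differ within these bounds. The standard errors ran from 0.06 (Calcrl and Cav1) to 0.24 (Klf4), with a median of 0.10 against 0.08 over all genes.

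**Figure D1:**
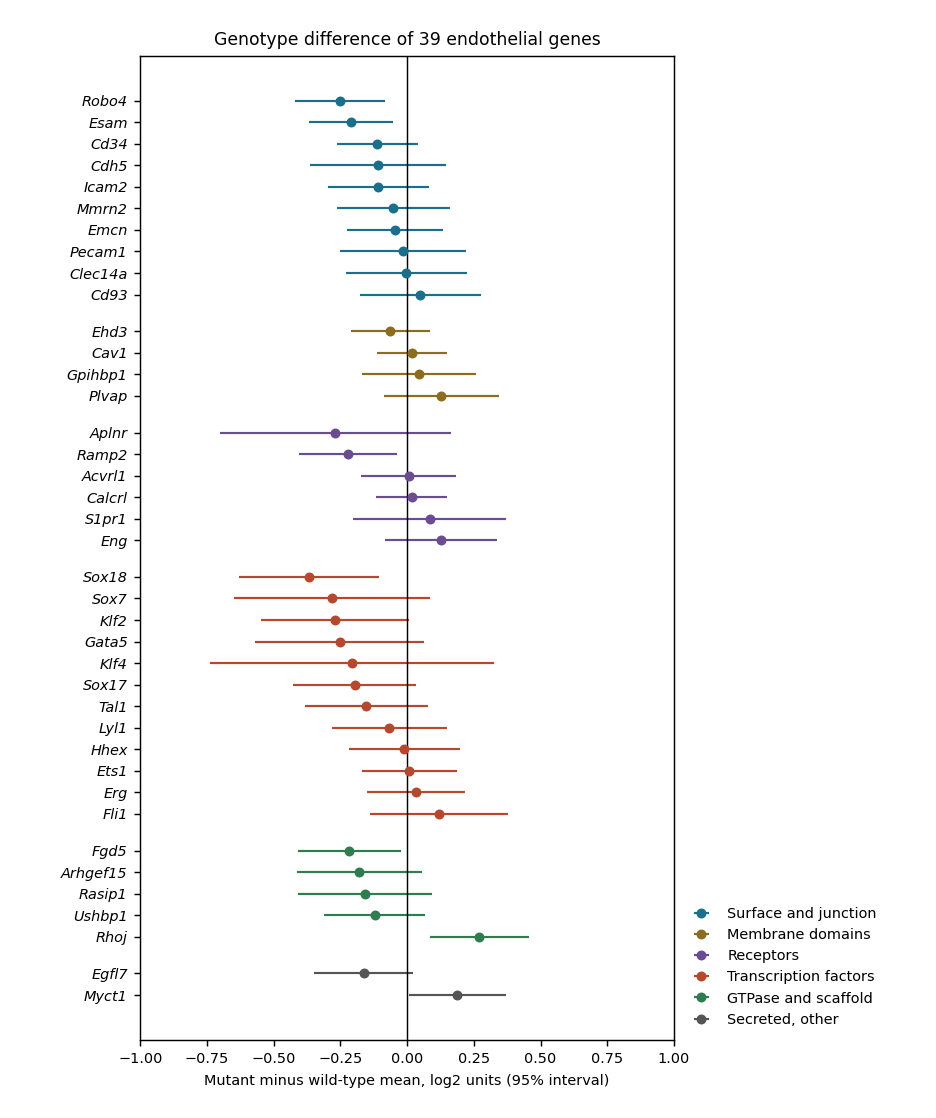
Mutant minus wild-type difference of each of 39 endothelial genes in log2 units (points) with its 95% interval (lines) from limma, n = 5 mice per genotype, grouped and coloured by role. The points run from -0.37 (Sox18) to 0.27 (Rhoj), no interval reaches a 2-fold change, and Klf4 and Aplnr have the widest intervals.

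Of 10 cell surface and junction genes, 9 had a lower mutant mean (all genes: 48.3%) and 0 were called (all genes: 1.26%). The 3 genes that best define endothelium differed little: VE-cadherin (Cdh5), the adherens junction protein of endothelium, by -0.11 ± 0.12 (SE), the adhesion molecule Pecam1 by -0.02 ± 0.11 (SE) and the sialomucin endomucin (Emcn) by -0.04 ± 0.08 (SE). Their interval bounds lay between -0.36 and 0.22. Pecam1 read 11.76, 11.89, 12.11, 12.11 and 11.76 in wild types 1 to 5 and 11.62, 11.88, 12.16, 11.94 and 11.94 in mutants 1 to 5. The lowest and the highest of these 10 values were both mutants.

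Robo4, a roundabout-family receptor that stabilises vessels, had the smallest p of all members. It read 9.33, 9.62, 9.26, 9.47 and 9.51 in wild types 1 to 5 and 9.23, 9.12, 9.22, 9.28 and 9.09 in mutants 1 to 5. Every mutant lay below 4 of the 5 wild types, and mutant 4 alone exceeded wild type 3. The difference was -0.25 ± 0.08 (SE, 95% interval -0.42 to -0.08), with an adjusted p of 0.254 in the limma fit. Esam, a tight-junction adhesion molecule, was the only member whose genotypes did not overlap, against 3.67% of all genes. Esam read 12.01, 12.06, 12.11, 12.21 and 12.08 in wild types 1 to 5 and 11.88, 11.91, 12.01, 11.96 and 11.67 in mutants 1 to 5. The gap between wild type 1 and mutant 3 was under 0.01, and when arrays were centred on their medians Esam overlapped and Robo4 became the only member that did not. The difference of Esam was -0.21 ± 0.07 (SE, adjusted p = 0.327).

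The remaining surface genes showed no larger differences. CD34, a sialomucin, differed by -0.11 ± 0.07 (SE) and the adhesion molecule Icam2 by -0.11 ± 0.09 (SE). Clec14a and Cd93 are lectin-like receptors that bind the matrix protein multimerin 2 (Mmrn2). These 3 partners differed by -0.0028 ± 0.10 (SE) for Clec14a, 0.05 ± 0.10 (SE) for Cd93 and -0.05 ± 0.10 (SE) for Mmrn2. All 3 had intervals between -0.26 and 0.28.

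The promoters of Robo4 and Rhoj are shown because these 2 members had the smallest p-values, Robo4 lower and Rhoj higher in mutants, and because both carry the same ETS-type motif. The sequences are the 250 bases before each gene's start in RefSeq (GRCm38.p6), 5′ to 3′ on the gene's strand, with the motif AGGAAG in capitals. Robo4 lies at chr9:37401722-37401971 (+) and Rhoj at chr12:75308063-75308312 (+).
Robo4: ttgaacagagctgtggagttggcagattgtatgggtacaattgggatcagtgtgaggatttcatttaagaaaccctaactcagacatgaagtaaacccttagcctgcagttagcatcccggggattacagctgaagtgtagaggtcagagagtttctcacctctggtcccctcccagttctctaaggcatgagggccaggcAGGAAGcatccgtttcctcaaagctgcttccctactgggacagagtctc
Rhoj: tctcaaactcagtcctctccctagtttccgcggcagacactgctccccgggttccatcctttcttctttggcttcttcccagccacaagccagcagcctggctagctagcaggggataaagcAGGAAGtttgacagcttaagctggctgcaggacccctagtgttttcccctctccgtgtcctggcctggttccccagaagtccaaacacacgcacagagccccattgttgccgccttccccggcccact
The motif begins 49 bases before the start in Robo4 and 128 bases before it in Rhoj. Searched on both strands, AGGAAG stood in 13 of 27 promoters listed for 21 of the 39 members (48.1%), against 29.5% of all 32851 promoters. The related CGGAAG was in 1 of 27 (3.70%), against 13.6% of all. The SOX-type motif ATTGTT stood in 5 of 27 (18.5%), against 9.42% of all, and the GATA-type motif AGATAA in 3 of 27 (11.1%), against 9.99%. Rhoj was among the members with ATTGTT, which is left in small letters in its sequence. The same 250 bases of Ehd3 and of Gata5, not printed here, held neither AGGAAG nor CGGAAG. Some members have up to 3 listed promoters, and a match in letters is no measure of binding.

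Of 4 membrane domain genes, 0 were called (all genes: 1.26%), 1 had a lower mutant mean (all genes: 48.3%) and 3 a higher one. Ehd3, a membrane-trafficking protein enriched in glomerular endothelium, read 13.85, 13.98, 13.82, 13.85 and 13.87 in wild types 1 to 5. The mutants 1 to 5 read 13.87, 13.77, 13.97, 13.81 and 13.66. Mutants 2, 4 and 5 lay below every wild type, while mutants 1 and 3 lay among the wild types. The difference was -0.06 ± 0.07 (SE, 95% interval -0.21 to 0.09, adjusted p = 0.839), and the second Ehd3 probe set gave -0.12 ± 0.11 (SE).

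Plvap forms the diaphragms that close fenestrae in many capillaries and is scarce in mature glomerular capillaries. Its transcript was not low here, at a mean of 11.71 in wild types and 11.84 in mutants, where Pecam1 averaged 11.92 in wild types. Which vessels of the isolate this signal came from was not tested. Plvap differed by 0.13 ± 0.10 (SE, interval -0.09 to 0.34). Cav1, the coat protein of caveolae, differed by 0.02 ± 0.06 (SE), and Gpihbp1, which carries lipoprotein lipase to the capillary surface, by 0.05 ± 0.10 (SE). Cav1 had one of the narrowest intervals of all members, from -0.11 to 0.15.

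Among 6 receptors, 0 were called (all genes: 1.26%), 2 had a lower mutant mean (all genes: 48.3%) and 4 a higher one. Adrenomedullin acts through the receptor Calcrl together with its partner Ramp2. Calcrl differed by 0.02 ± 0.06 (SE, interval -0.11 to 0.15). Ramp2 read 11.76, 12.13, 11.74, 11.86 and 11.97 in wild types 1 to 5 and 11.56, 11.58, 11.71, 11.72 and 11.77 in mutants 1 to 5. Its mutants were at the lower end with an overlap at wild types 1 and 3, and the difference was -0.22 ± 0.08 (SE, adjusted p = 0.399). Endoglin (Eng) and Acvrl1 serve BMP9 signalling as co-receptor and type I receptor, and differed by 0.13 ± 0.10 (SE) and 0.01 ± 0.08 (SE). A second Eng probe set gave 0.17 ± 0.07 (SE), with an unadjusted p of 0.0243 and an adjusted p of 0.417 in the limma fit. The other Acvrl1 probe set gave -0.07 ± 0.14 (SE). The sphingosine-1-phosphate receptor S1pr1 differed by 0.08 ± 0.13 (SE).

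The apelin receptor Aplnr had the widest range over mice of all members. It read 12.02, 12.27, 12.68, 12.11 and 12.32 in wild types 1 to 5 and 11.80, 12.47, 12.28, 12.15 and 11.35 in mutants 1 to 5. Mutant 5 was lowest and wild type 3 highest, 1.33 log2 units apart, with the other mice between them. The difference was -0.27 ± 0.20 (SE, interval -0.70 to 0.16). It ran from -0.38 without mutant 2 to -0.10 without mutant 5, and the other Aplnr probe set gave -0.09 ± 0.17 (SE).

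Of 12 transcription factors 0 were called (all genes: 1.26%), and the median difference was -0.18. The mutant mean was lower in 9 (all genes: 48.3%) and higher in 3. The 3 with a higher mutant mean were the ETS factors Ets1 (0.01 ± 0.08 SE), Erg (0.03 ± 0.08 SE) and Fli1 (0.12 ± 0.12 SE), which maintain endothelial identity. The sign of each changed under at least 1 other setting. Their intervals ran from -0.17 to 0.38.

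The SOXF factors Sox7, Sox17 and Sox18 guide arterial fate and vessel formation, and all 3 had a lower mutant mean. Sox18 read 12.40, 12.59, 12.35, 12.71 and 12.23 in wild types 1 to 5 and 12.02, 11.87, 12.13, 12.45 and 11.96 in mutants 1 to 5. Sox7 read 10.05, 10.34, 9.79, 10.29 and 10.10 in wild types and 9.67, 9.48, 9.78, 10.45 and 9.78 in mutants, in the same order. Sox17 read 11.48, 11.62, 11.41, 11.39 and 11.39 in wild types and 11.25, 11.04, 11.11, 11.64 and 11.26 in mutants. In all 3 genes mutant 4 was the highest mutant, and for Sox7 and Sox17 it was the highest of all 10 mice.

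Differences of the SOXF genes were -0.37 ± 0.12 (SE, adjusted p = 0.293) for Sox18, -0.28 ± 0.17 (SE, adjusted p = 0.670) for Sox7 and -0.20 ± 0.11 (SE, adjusted p = 0.622) for Sox17. The other probe set gave -0.11 ± 0.09 (SE) for Sox7, on a weak signal averaging 5.14, and -0.15 ± 0.13 (SE) for Sox17. Sox18 had only 1 probe set, and it lies on chromosome 2, as Wt1 does. Of 7 members on that chromosome, 4 had a lower and 3 a higher mutant mean, where 48.3% of all genes were lower. None of these 7 was called, and the part of chromosome position was not tested. Leaving out each mouse in turn gave -0.46 to -0.30 for Sox18, -0.44 to -0.19 for Sox7 and -0.29 to -0.14 for Sox17. The lower ends were those without mutant 4, as its high values fix, with adjusted p-values of 0.104, 0.193 and 0.185. Without mutant 4 the genotypes of 5 members did not overlap (the 3 SOXF genes, Robo4 and Esam), against 4.78% of all genes without that mouse. Mutant 4 also had the highest mean of proximal tubule markers (10.63) and the lowest of podocyte markers (12.26). A tubule mean over proximal tubule and distal nephron markers together served as a covariate in limma. With it the SOXF differences were -0.40 (Sox18), -0.31 (Sox7) and -0.21 (Sox17), with adjusted p-values of 0.139, 0.563 and 0.498. The part of the podocyte level was not tested.

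Gata5, a factor of glomerular endothelium, read 9.61, 9.85, 9.53, 9.77 and 9.39 in wild types 1 to 5 and 9.00, 9.11, 9.63, 9.71 and 9.44 in mutants 1 to 5. Mutants 1 and 2 lay below every wild type and the other 3 lay among them. The difference was -0.25 ± 0.14 (SE, interval -0.57 to 0.06, adjusted p = 0.657). A second Gata5 probe set gave -0.06 ± 0.14 (SE).

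Klf2 and Klf4 are induced in endothelium by laminar blood flow. Klf4 read 11.30, 12.00, 10.69, 11.34 and 11.53 in wild types 1 to 5 and 11.49, 10.71, 10.69, 11.53 and 11.39 in mutants 1 to 5. Wild type 3 and mutants 2 and 3 were the lowest, and wild type 2 was the highest. It had the largest spread within genotypes of all members, with an SD of 0.45 where the median of members was 0.16. The difference was -0.21 ± 0.24 (SE, interval -0.74 to 0.33), and it ran from -0.38 without wild type 3 to -0.05 without wild type 2. Klf2 read 12.16, 12.56, 11.78, 12.37 and 12.31 in wild types 1 to 5 and 12.14, 11.88, 11.96, 11.97 and 11.88 in mutants 1 to 5. Wild type 3 was the lowest of all, below every mutant, and 4 wild types were above every mutant. The difference was -0.27 ± 0.13 (SE, adjusted p = 0.551).

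Both KLF genes were highest in wild type 2, where the mean of 9 immediate early genes (Fos, Egr1 and others, a list added after the KLF values were seen) was 9.61. That mean was as high in mutant 3 (9.64), where Klf4 was among the lowest at 10.69, and it lay between 8.82 and 9.31 in the other 8 mice. Whether the KLF genes vary with these genes was not tested. The blood lineage factors Tal1 and Lyl1 are also used by endothelium. Tal1 differed by -0.15 ± 0.11 (SE), Lyl1 by -0.07 ± 0.10 (SE) and the homeobox factor Hhex by -0.01 ± 0.09 (SE).

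**Figure D2:**
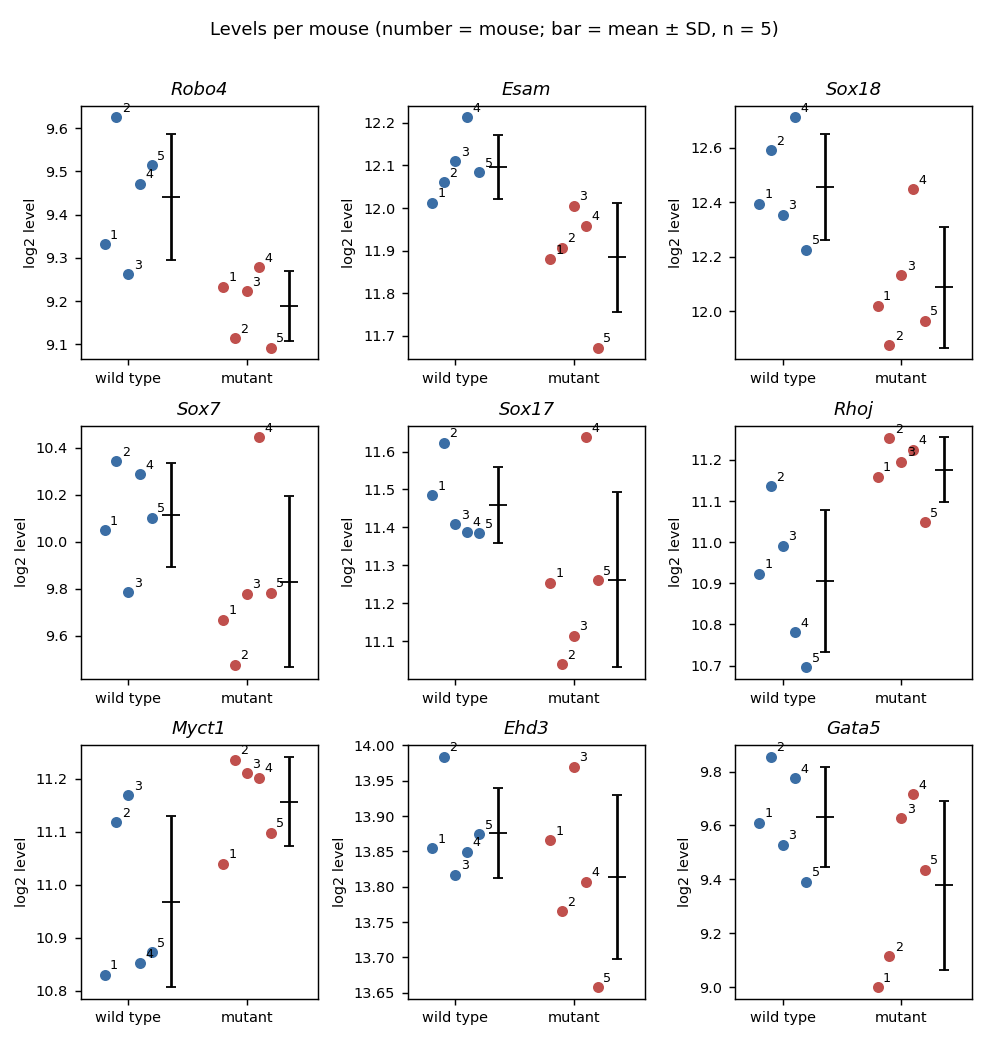
Log2 level of 9 endothelial genes in each mouse (points, labelled with the mouse number) with the mean ± SD of each genotype beside them (n = 5), each panel on its own axis. Only Esam has no overlap between genotypes, and mutant 4 stands above the other mutants in Sox18, Sox7 and Sox17.

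Of 5 genes of small GTPase signalling and scaffolds, 0 were called (all genes: 1.26%) and 4 had a lower mutant mean (all genes: 48.3%). The exception was Rhoj, which had the largest positive difference of all members. Rhoj read 10.92, 11.14, 10.99, 10.78 and 10.70 in wild types 1 to 5 and 11.16, 11.25, 11.20, 11.22 and 11.05 in mutants 1 to 5. Mutant 5 lay below wild type 2, and the other 4 mutants lay above every wild type. The difference was 0.27 ± 0.09 (SE, interval 0.08 to 0.46, adjusted p = 0.267).

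Fgd5, an exchange factor for Cdc42, differed by -0.22 ± 0.09 (SE, adjusted p = 0.457). The Rap1 effector Rasip1 differed by -0.16 ± 0.11 (SE), Arhgef15 by -0.18 ± 0.11 (SE) and Ushbp1 by -0.12 ± 0.09 (SE). Mutant 1 had the lowest level of 10 mice in Rasip1, Arhgef15 and Ushbp1. The secreted factor Egfl7 differed by -0.16 ± 0.08 (SE, adjusted p = 0.606), and all 3 of its other probe sets were negative as well.

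Myct1 was the second member with a higher mutant mean at an unadjusted p under 0.05. It read 10.83, 11.12, 11.17, 10.85 and 10.87 in wild types 1 to 5 and 11.04, 11.24, 11.21, 11.20 and 11.10 in mutants 1 to 5. Wild types 1, 4 and 5 lay below every mutant, while wild types 2 and 3 lay among the mutants. The difference was 0.19 ± 0.08 (SE, adjusted p = 0.508), and the 3 other probe sets of Myct1 gave 0.28, 0.21 and 0.22, also uncalled.

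Probe sets of the same gene mostly agreed in sign. In all, 19 members had 32 further probe sets, of which 0 were called, 3 had an unadjusted p under 0.05 and 22 had the sign of the chosen one. In 7 members at least 1 probe set had the opposite sign, and in 0 of these did any of them reach an unadjusted p under 0.05.

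The spread between mice was not the same in all members. Calcrl and Cav1 had the smallest SD within genotypes, 0.07 each, and the median over members was 0.16 against 0.13 over all genes. Mutant 1 held the lowest of 10 levels in 13 members and mutant 5 in 11, while wild type 2 held the highest in 10. Mutants 3 and 4 each lay above their genotype mean in 31 of 39 members. The mean of all members was 10.94 to 11.15 in wild types and 10.87 to 11.06 in mutants. Mutants 1 and 5 lay below every wild type, wild type 2 lay above every mutant, and the other 7 mice overlapped.

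**Figure D3:**
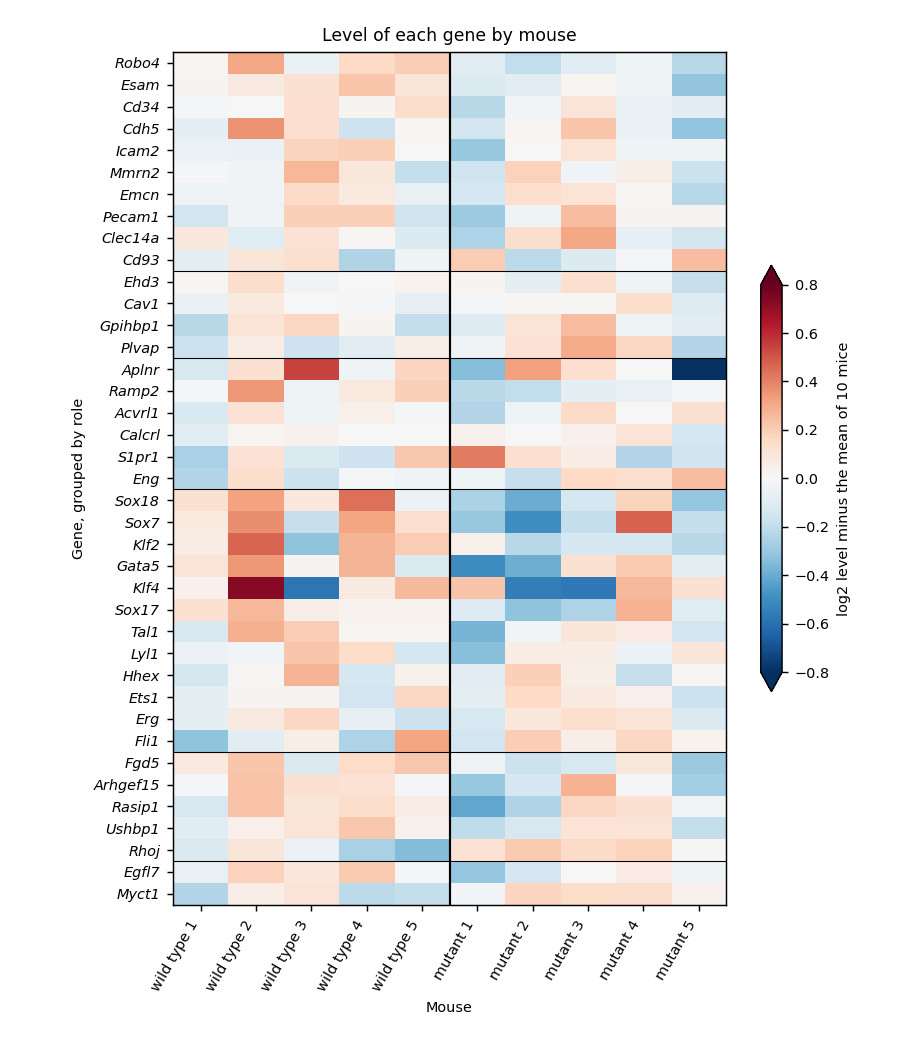
Level of each of 39 endothelial genes (rows, grouped by role) in each of 10 mice (columns, the line parts wild types from mutants), as log2 level minus the mean of 10 mice. Mutants 1 and 5 are blue in many rows, with the lowest level in 13 and 11 genes, and Aplnr and Klf4 vary most.

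Marker lists of other cell types were read in the same mice. The 19 proximal tubule markers had a mean of 6.81 to 9.49 over wild types and 6.89 to 10.63 over mutants, with 0 called. In 18 of the 19 the mutant mean was the higher one, and 1 was lower, where 48.3% of all genes were lower. Their median difference was 0.32, and 1 of the 19 had an unadjusted p under 0.05 in the limma fit. The mean of these markers was lowest in wild type 5 and mutant 5, whose member means were 11.02 and 10.89. It was highest in mutant 4, whose member mean was 11.06. Of 16 mesangial and smooth muscle markers 2 were called, Myl9 and Angpt2, both higher in mutants, where 1.26% of all genes were called. In this list 11 markers had a higher mutant mean. An unadjusted p under 0.05 in the limma fit was reached by 6 of the 16 (37.5%, 5 higher and 1 lower), against 11.0% of all genes. The list mean was 10.05 to 10.27 over wild types and 10.27 to 10.58 over mutants. Of 15 podocyte markers 1 was called, Plce1, lower in mutants, and 11 had a lower mutant mean. Here 7 of the 15 (46.7%, 5 lower and 2 higher) had an unadjusted p under 0.05. The podocyte list mean was 12.51 to 12.66 over wild types and 12.26 to 12.57 over mutants. Of 18 leukocyte markers Csf1r alone was called, lower in mutants (-0.99 ± 0.17 SE), while 8 of the 18 had a lower and 10 a higher mutant mean. Among 16 distal nephron, 8 erythroid and platelet and 4 lymphatic markers 0 were called. Of the 8 erythroid and platelet markers 7 had a lower mutant mean, and 3 (37.5%, all lower) had an unadjusted p under 0.05 in the limma fit. Their list mean was 6.53 to 6.90 over wild types and 6.30 to 6.60 over mutants. The part of mesangial, podocyte, leukocyte and erythroid RNA in the members' levels was not tested. With the tubule mean over proximal and distal markers together as a covariate, 0 of 39 members were called and the median difference was -0.08.

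**Figure D4:**
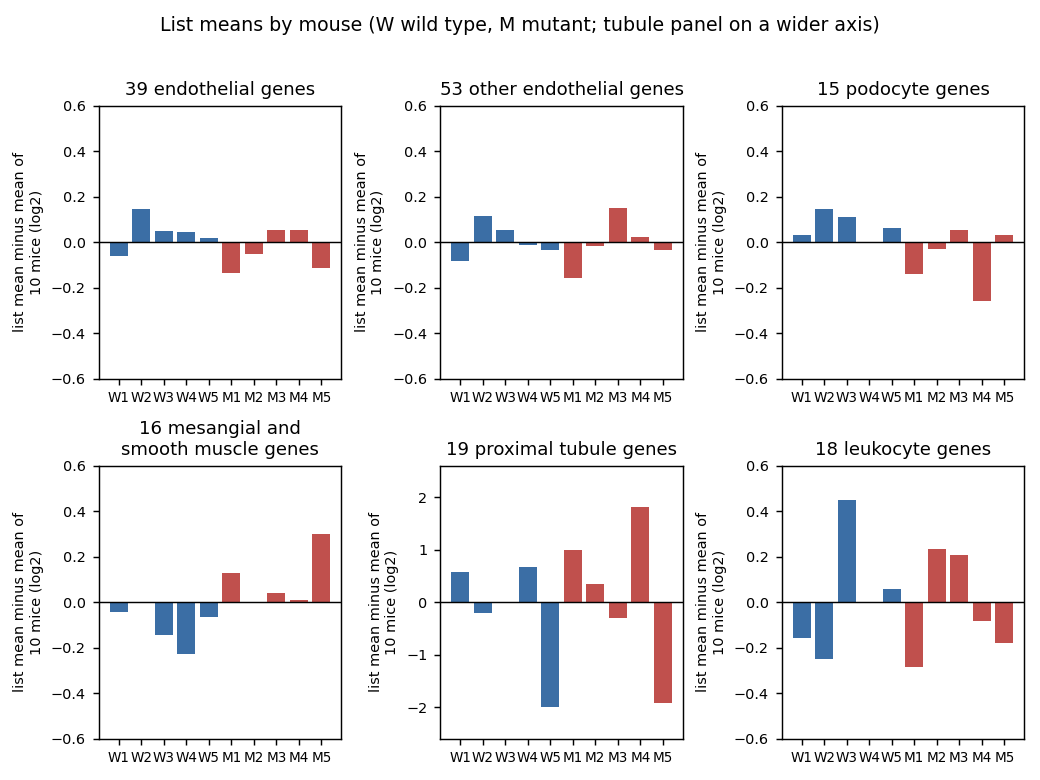
Mean log2 level of 6 gene lists in each mouse, drawn as the deviation from the mean of 10 mice (blue wild types W1 to W5, red mutants M1 to M5), with a wider axis for proximal tubule. The tubule list spans 6.81 to 10.63, while the 39 endothelial genes span 10.87 to 11.15.

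A list of 55 other endothelial genes that shares no gene with the members had 53 measured. Like the members, it was chosen with earlier results of these data known, so its shares are descriptions only. In it 1 gene was called, where 1.26% of all genes were. The mutant mean was lower in 34 of 53 (64.2%, against 48.3% of all genes), and the median difference was -0.09 against 0.00. An unadjusted p under 0.05 in the limma fit was reached by 14 (26.4%, 10 lower and 4 higher), against 11.0% of all genes. Genotypes did not overlap in 3 of 53, against 3.67% of all genes. The interval lay within a 2-fold change for 48 of 53, against 96.9% of all genes. Receptors for podocyte-derived VEGF and angiopoietin were uncalled, with Kdr at -0.06 ± 0.12 (SE), Flt1 at -0.25 ± 0.08 (SE), Tek at -0.14 ± 0.08 (SE) and Tie1 at -0.19 ± 0.11 (SE). The called gene was Sost, which encodes the Wnt antagonist sclerostin. It read 5.89, 6.85, 6.11, 6.26 and 6.27 in wild types 1 to 5 and 6.96, 7.25, 8.20, 8.40 and 8.64 in mutants 1 to 5, a rise of 1.61 ± 0.31 (SE, adjusted p = 0.0395). Its call was lost without wild type 1, 3, 4 or 5 and without mutant 3, 4 or 5, with adjusted p-values of 0.0741 to 0.112. It was also lost with trend and robust variances (0.0520), with gene means (0.0580), in mice with close animal numbers (0.388) and on the second Sost probe set (0.475).

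The next genes of that list were Nos3, the endothelial nitric oxide synthase, and the tight-junction protein Cldn5. Nos3 read 9.73, 10.04, 9.72, 9.74 and 9.80 in wild types 1 to 5 and 9.20, 9.44, 9.54, 9.49 and 9.50 in mutants 1 to 5. The genotypes of Nos3 did not overlap, and the difference was -0.37 ± 0.08 (SE, adjusted p = 0.0863). Cldn5 differed by -0.50 ± 0.14 (SE, adjusted p = 0.202), and mutant 2 lay above wild type 5. None of the 39 members differed by as much as Cldn5.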

How the data were processed

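Glomerular RNA of each of 10 mice was measured on 1 array of its own, with a biotin label per the labels. The authors deposited log2 expression values made with RMA per the submitters' processing notes (version and settings not given in the sources used here). RMA equalises the distributions of arrays and compresses changes of weak signals; precision is set by 5 arrays per genotype. All columns were assigned to mice by accession, and genotypes came from the labels. Replicate numbers only name mice.

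Of 45101 probe sets, 64 controls were left out and 45037 were tested with limma (version 3.58.1, R version 4.3.3), with genotype as the only term. Two-sided p-values were adjusted by Benjamini-Hochberg over all 45037, and intervals are 95% from the moderated fit. The limma step was checked on simulated data with independent noise per probe set and shifts larger than any member difference. That check does not cover differences as small as those of the members. A single gene was annotated to 34945 probe sets, several to 932 and none listed for 9160, which left 18193 genes. Promoters came from RefSeq (GRCm38.p6) by symbol.

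Members and lists were chosen with earlier results of these data known. Values of every mouse are given for members called, not overlapping between genotypes, among the 3 smallest p or the 3 largest differences, for Ehd3 and Gata5, and for members whose probe sets disagree in sign with 1 at an unadjusted p under 0.05 (there were 0). Sox17, Ramp2, Aplnr, Klf2, Klf4, Myct1 and Pecam1 were added after their values were seen. Of other lists, called genes and the 3 with the smallest p were eligible. Figures used matplotlib (version 3.10.9).

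Alternatives were median centring, repeated quantile normalization, filters on weak probe sets, trend and robust variances, array weights, other choices of probe set, mice with close animal numbers, a tubule covariate, other thresholds and leaving out each mouse.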

Additional observations from a re-analysis of the deposited data

How the results depend on the processing

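No paired analysis was possible because mice of the 2 genotypes share no litter name or replicate label. In 21 other settings limma called 0 of the measured members, also at an adjusted p under 0.01 or 0.1, with a smallest adjusted p of 0.104 (Sox18 without mutant 4). Between 2 and 10 members had an unadjusted p under 0.05. The median difference of the members stayed between -0.11 and -0.04.

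The count of members without overlap between genotypes ran from 1 to 5 when 1 mouse was left out (5 without mutant 4, 3 without wild type 3, mutant 3 or mutant 5, and 2 without wild type 2), where 4.58% to 5.65% of all genes did not overlap. It was 2 with repeated quantile normalization (3.75% of all genes), 4 in mice with close animal numbers (8.76%) and 0 with second probe sets (2.97%), where 11 of 19 members had a lower mutant mean. The count of other endothelial genes called was 2 with repeated quantile normalization, 0 with trend and robust variances, with gene means, or in mice with close numbers, and 0 and 2 at adjusted p under 0.01 and 0.1. With second probe sets the 1 gene called was Tm4sf1, not Sost. It ran from 0 to 1 when 1 mouse was left out.

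In 16 members, all with a difference under 0.12 in size, the sign changed in some setting, none of them called. With gene means these were Cdh5 (0.030), Ets1 (-0.055), Fli1 (-0.00087), Clec14a (0.056), Cd93 (-0.044) and Acvrl1 (-0.032). With second probe sets they were Cdh5 (0.17), Fli1 (-0.12), Clec14a (0.11) and Acvrl1 (-0.070). Leaving out probe sets with names in _a_at, _s_at or _x_at kept 32 members and turned Mmrn2 (0.019) and Acvrl1 (-0.070). Array weights turned Pecam1 (0.024), Emcn (0.0065), Clec14a (0.052), Cd93 (-0.011) and Hhex (0.034). Close numbers turned Erg (-0.0082), Clec14a (0.025), Gpihbp1 (-0.048), Cd93 (-0.027) and Acvrl1 (-0.069). Quantile normalization turned Ets1 (-0.0017), Cav1 (-0.0011) and Acvrl1 (-0.0088), centring turned Clec14a (0.0031) and the tubule covariate turned Hhex (0.0041). The cause was not tested. With 1 mouse left out, the differences ran as follows. Pecam1 ran from -0.080 to 0.054, Emcn from -0.083 to 0.0054, Ets1 from -0.030 to 0.052, Erg from -0.0073 to 0.078 and Clec14a from -0.080 to 0.058. Mmrn2 ran from -0.11 to 0.0088, S1pr1 from -0.0097 to 0.15, Gpihbp1 from -0.010 to 0.092, Calcrl from -0.0086 to 0.054 and Cd93 from -0.0062 to 0.11. Cav1 ran from -0.015 to 0.046, Acvrl1 from -0.032 to 0.065, Lyl1 from -0.11 to 0.0084 and Hhex from -0.059 to 0.056.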
